A study of Mus musculus with 6 samples.

Results

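Alpha-actinins are antiparallel dimers that cross-link actin filaments, and rapsyn is a membrane-associated scaffold that clusters acetylcholine receptors under the nerve ending of skeletal muscle. Their transcripts were measured in whole testes of mice at postnatal day 4, with 3 wild-type samples set against 3 that the labels call Foxo1 null, each of the FVB strain. The genes are Actn1, Actn2, Actn3, Actn4 and Rapsn, which are 5 of the 19057 genes named on the Illumina bead array. Their probes were selected by gene symbol in the platform annotation, which gave 13 probes. Actn2 and Rapsn came to attention because a probe of each was among the probes called lower in the null testes, and the other 3 genes complete the alpha-actinin family. The difference between null and wild type therefore chose these genes, and it is given here as a description without a test.

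In striated muscle, alpha-actinins anchor the thin filaments of neighbouring sarcomeres at the Z-disc, where Actn2 and Actn3 are the muscle-type members. Actn1 and Actn4 are expressed widely and bundle actin at focal adhesions, cell junctions and along stress fibres, and their actin binding is sensitive to calcium. Rapsyn acts at the neuromuscular junction downstream of agrin, its receptor Lrp4 and the kinase MuSK. Foxo1 is a forkhead transcription factor that leaves the nucleus when AKT phosphorylates it.

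The labels do not say how the null allele was made, in which cells Foxo1 was lost, or whether samples came from separate animals. Error estimates and p-values thus measure only the spread between these samples, which may be technical. In whole-testis RNA, fewer cells of a type and less RNA per cell cannot be told apart. Between 20107 and 21665 of 45281 probes were detected per array (detection p-value under 0.05), and 20597 probes detected on at least 3 of the 6 arrays were tested. Of the testis markers, all 13 measured Sertoli cell genes and all 9 measured Leydig cell genes were detected. At the brighter Foxo1 probe, ILMN_2656498, the normalized log2 intensity was 8.08, 8.07 and 8.19 on wild-type replicates 1 to 3 and 6.37, 5.83 and 6.69 on null replicates 1 to 3. At the other, ILMN_2509340, it was 5.69, 5.42 and 4.96 in wild type and 8.82, 8.57 and 8.76 in null. The Foxo1 probes therefore differed in opposite directions, each with all arrays on their own group's side. Where they lie relative to a deleted part was not analysed here, so they do not check the labels.

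Of the 13 probes of the alpha-actinins and Rapsn, 9 were tested, 8 were detected on all 6 arrays and 2 were detected on none. With limma and Benjamini-Hochberg adjustment over all 20597 tested probes, at a threshold of 0.05, 2 of the 9 were called lower and 0 higher. The share called over the whole array was 0.126% lower and 0.00971% higher. Because the calls brought the genes in, nothing is read from the count. Every null array lay below every wild-type array at 5 of the 9 tested probes, and above at 0, where 7.73% and 6.23% of all tested probes did so. Those 5 are the tested probes of Actn2 and Rapsn, the genes that the calls brought in, and an Actn3 probe. That Actn3 probe passed the detection filter through wild type alone, so nothing is read from this count either.

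Actn2, the alpha-actinin of cardiac and skeletal muscle Z-discs, was the member with the largest difference. At probe ILMN_2764727 the normalized log2 intensity was 8.03, 8.20 and 8.73 on wild-type replicates 1, 2 and 3 and 6.53, 6.39 and 6.90 on null replicates 1, 2 and 3. All 3 null arrays were below all 3 wild-type arrays, with a gap of 1.13 between the lowest wild-type and the highest null value. The wild-type mean was 8.32 ± 0.36 (SD, n = 3) and the null mean 6.61 ± 0.26 (SD, n = 3), a difference of -1.71 (SE 0.22) on the log2 scale or a 3.28-fold lower intensity. This is the called Actn2 probe.

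For the promoter of Actn2, the alpha-actinin gene with a called probe, the 250 bases before the gene's start are shown from RefSeq (GRCm38.p6, chr13:12340733-12340982, minus strand). Capitals mark CACGTG, a form of the E-box bound by basic helix-loop-helix factors.
Actn2: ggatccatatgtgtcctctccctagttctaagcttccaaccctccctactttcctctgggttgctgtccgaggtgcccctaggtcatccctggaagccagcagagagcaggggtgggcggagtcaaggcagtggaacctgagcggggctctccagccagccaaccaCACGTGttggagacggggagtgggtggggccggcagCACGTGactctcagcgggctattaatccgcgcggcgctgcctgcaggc

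The sequence table held promoters of 3 of the 5 genes, Actn1, Actn2 and Actn4. In the Actn2 window CACGTG, which reads the same on both strands, occurred 2 times, beginning 84 and 48 bases before the start, and it occurred 0 times in the windows of Actn1 and Actn4. It is present in 6.02% of 32851 promoter windows of this length. The forkhead core GTAAACA, searched on both strands, and the E-box form CAGCTG were in none of the 3 windows, and are in 3.17% and 13% of all windows. The windows of Actn1, Actn2 and Actn4 held 68.4%, 63.2% and 67.6% G and C and 18, 12 and 29 CpG dinucleotides, against medians of 52.4% and 6 over all promoter windows. A match is a description of the letters and not of binding, and these counts do not bear on whether Foxo1 or another factor acts there.

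A further Actn2 probe, ILMN_2797061, had log2 intensities of 6.57, 6.89 and 7.32 in wild type and 5.21, 5.55 and 5.81 in null. Again the groups did not overlap, and wild-type replicate 3 was the highest array at both probes. The difference was -1.40 (SE 0.23), or 2.65-fold lower, and this probe was not among those called. The remaining Actn2 probe, ILMN_1258081, which the platform annotation ties to a cDNA clone and not to the reference transcript of the other probes, was detected on no array and carries no information on a difference.

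Rapsn had a similar pattern at both of its tested probes. At ILMN_2967654 the log2 intensity was 7.0, 6.83 and 7.34 on the wild-type arrays and 5.66, 5.62 and 5.58 on the null arrays. The null arrays lay within a narrow band, with a mean of 5.62 ± 0.04 (SD, n = 3) against 7.05 ± 0.26 (SD, n = 3) in wild type. The difference was -1.43 (SE 0.17), a 2.70-fold lower intensity, and this is the called Rapsn probe.

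At the brighter Rapsn probe, ILMN_2723095, the values were 7.40, 6.93 and 8.11 in wild type and 6.47, 6.21 and 6.25 in null. The groups were apart by 0.46, and wild-type replicate 3 was again the highest. The difference was -1.17 (SE 0.28), or 2.25-fold lower, and it was not called, the wild-type arrays having an SD of 0.60. The third Rapsn probe, ILMN_1235236, was detected on null replicate 1 and wild-type replicate 3 and on no other array. Its scanner intensity was 156 on null replicate 1, 143 on wild-type replicate 3 and between 109 and 132 on the others, so it did not show the pattern of the other Rapsn probes and was not tested.

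**Figure D1:**
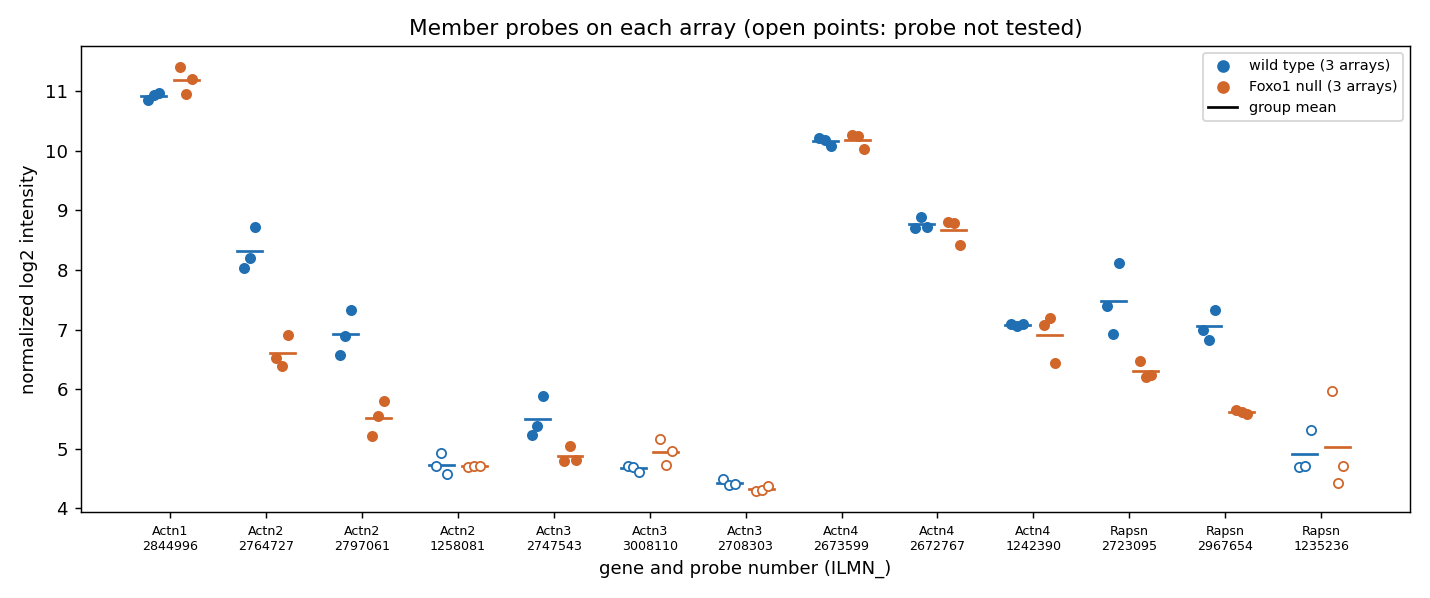
Normalized log2 intensity (y axis) of all 13 probes of the 5 genes (x axis) on each of 3 wild-type and 3 Foxo1 null arrays, with the group mean as a bar and untested probes as open points. At both tested probes of Actn2 and of Rapsn the null points lie below the wild-type points, while at the 3 Actn4 probes the groups overlap.

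The same order is present in the scanner intensities before any normalization, which were low at these probes. At Actn2 probe ILMN_2764727 they were 332, 364 and 498 in wild type and 188, 186 and 252 in null, with standard errors over beads from 8.16 to 18.6. At Rapsn probe ILMN_2967654 they were 206, 199 and 259 in wild type and 143, 154 and 165 in null, with bead standard errors from 5.37 to 13.7. The median scanner intensity over all probes lay between 116 and 141, so the null intensities of Rapsn stood little above it. At the dimmer Actn2 probe the lowest wild-type intensity was 176.0 and the highest null intensity 175, on arrays whose overall brightness differed.

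**Figure D2:**
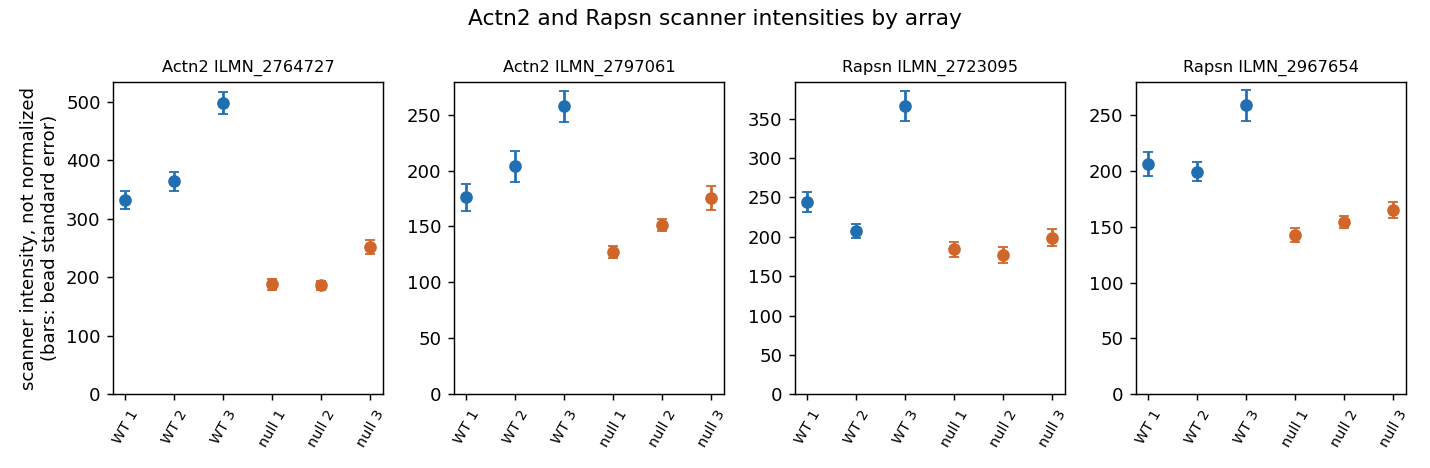
Scanner intensity, not normalized (y axis, from 0), of the tested Actn2 and Rapsn probes on each array (x axis; WT, wild type), with the bead standard error as the bar. In all 4 panels wild-type replicate 3 is the brightest array, and at ILMN_2764727 the null arrays lie between 186 and 252.

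The size of the differences changed with how background was treated. Without background correction the difference was -1.09 at the called Actn2 probe and -0.65 at the called Rapsn probe, and with the authors' normalized values it was -1.09 and -0.63. At all 4 tested probes of Actn2 and Rapsn the difference was below 0 in each of the 13 other settings that can alter it. Over all tested probes, limma called 26 lower in the main fit and 49 without null replicate 1. Leaving out any other single array gave 0 to 4. The number of called member probes likewise rested on all 6 arrays: it was 1 (Rapsn ILMN_2967654) without null replicate 1 and 0 without any other single array by limma. In each case 5 member probes were lower at an unadjusted p under 0.05, and without null replicate 2 another 1 was higher. Nothing is read from these unadjusted counts, because this contrast chose the genes and an Actn3 probe passed the detection filter through wild type alone. The difference of the called Actn2 probe without a single array had its largest size, -1.86, when null replicate 3 was left out and its smallest, -1.52, when wild-type replicate 3 was. That of the called Rapsn probe lay between -1.55 (without wild-type replicate 2) and -1.30 (without wild-type replicate 3).

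Actn3, the alpha-actinin of fast skeletal muscle fibres, was near or below background. Its probe ILMN_2747543 was detected on all 3 wild-type arrays, at log2 intensities of 5.23, 5.38 and 5.88, and on 0 of 3 null arrays, measured at 4.80, 5.05 and 4.81. It passed the detection filter through the wild-type arrays alone, so it had to differ, and only a bound can be given: the intensity was at least 1.35-fold lower in null, the measured means being 5.50 and 4.88. This probe was not called. Of the other Actn3 probes, ILMN_2708303 was detected on no array and ILMN_3008110 on null replicate 1 only. At ILMN_3008110 the order was the opposite, with 4.70, 4.70 and 4.62 in wild type and 5.17, 4.74 and 4.96 in null. It was not tested.

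Actn1 and Actn4, the widely expressed alpha-actinins, did not share the pattern of Actn2. The single Actn1 probe, ILMN_2844996, had log2 intensities of 10.85, 10.94 and 10.97 in wild type and 11.41, 10.95 and 11.20 in null. Null replicate 2 lay among the wild-type arrays and the other null arrays above them. The difference was 0.27 (SE 0.16), positive in each of the 13 other settings that can alter it. It was 0.16 when null replicate 1 was left out and 0.38 when null replicate 2 was. Before normalization, the scanner intensities were 2067 to 2928 in null and 1845 to 1978 in wild type, without overlap.

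After normalization, Actn4 showed no separation of the groups at any of its 3 probes. At the brightest, ILMN_2673599, the log2 intensities were 10.22, 10.18 and 10.08 in wild type and 10.28, 10.26 and 10.03 in null, a difference of 0.03 (SE 0.14). At ILMN_2672767 and ILMN_1242390 the differences were -0.10 (SE 0.16) and -0.18 (SE 0.21). The normalized values of the groups overlapped at all 3 probes, and null replicate 3 was the lowest array at each. Before normalization, scanner intensities at ILMN_2673599 were 1295 to 1411 in null and 1111 to 1215 in wild type, on arrays whose overall brightness differed. Without null replicate 3 the difference at ILMN_2672767 was 0.03 and that at ILMN_1242390 was 0.06. The sign at ILMN_2673599 also changed with the setting, being below 0 in 4 of the 13 settings that can alter it.

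Set side by side, Actn2 and Rapsn had differences from -1.71 to -1.17 at their 4 tested probes, and the widely expressed Actn1 and Actn4 from -0.18 to 0.27 at theirs. Actn3, the other muscle-type alpha-actinin, is not ranked with them. Its tested probe passed the filter through wild type alone, so only a bound of at least 1.35-fold lower in null is given. With the authors' normalized values the 4 Actn2 and Rapsn probes ran from -1.09 to -0.60, and that Actn3 probe was measured at -0.19. This contrast between the kinds of alpha-actinin is part of how the genes were put together, and no test of it is given. Intensities of different probes are not comparable, so the data do not say which alpha-actinin is the most abundant in the testis.

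**Figure D3:**
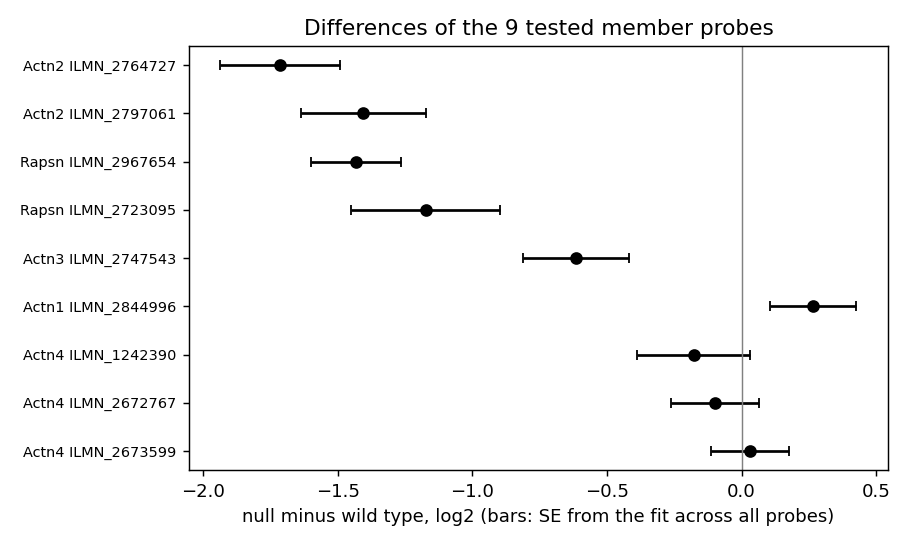
Difference in normalized log2 intensity, null minus wild type (x axis), at the 9 tested probes (y axis), with the SE from the fit across all probes as the bar. The Actn2 and Rapsn probes lie between -1.71 and -1.17, and those of Actn1 and Actn4 between -0.18 and 0.27.

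Probes of the same gene also varied together from array to array. Measured as deviations from the group means over the 6 arrays, the correlation was 0.86 between the tested Actn2 probes and 0.99 between the tested Rapsn probes, and between 0.84 and 0.86 among the Actn4 probes. Between the tested Actn2 and the tested Rapsn probes it ranged from 0.39 to 0.61, and it was 0.61 between the called ones. These points share the same arrays and RNA, and the values are descriptions only.

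Of the genes that work with alpha-actinins and rapsyn, none passed the test. Each gene of the following lists entered by its brightest tested probe, and of all 11145 tested genes 0.162% were called lower and 0.00897% higher, with a median difference of 0.01. At an unadjusted p under 0.05, 4.76% were lower and 4.26% higher. Of 16 tested partners of alpha-actinin at the Z-disc, limma called 0, while 3 were higher and 0 lower by the unadjusted p under 0.05, with a median difference of 0.05. Those 3 were Pdlim5, a PDZ and LIM protein (0.62, SE 0.18, adjusted p = 0.329), Cryab, a small heat shock protein of muscle (0.48, SE 0.17), and Myoz2, a myozenin that binds alpha-actinin (0.69, SE 0.28, detected on 1 of 3 wild-type arrays). Myoz1, its relative of fast muscle, was at -0.29 (SE 0.21), Flnc, a muscle filamin, at 0.08 (SE 0.24), and Tcap, which caps titin, at -0.01 (SE 0.18). Of the Z-disc partners Myoz3, Csrp3, Neb, Nebl, Synpo2 and Xirp2 were detected on no array.

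The receptor clustering genes that act with rapsyn showed 0 of 12 tested members called by limma and 0 at an unadjusted p under 0.05, with a median difference of -0.04. Agrn, the nerve-derived signal that starts clustering, was at 0.09 (SE 0.15). Its receptor Lrp4 was at 0.28 (SE 0.21), and Chrnb1, the beta subunit of the muscle acetylcholine receptor, at 0.23 (SE 0.17). Nrg1, the ligand of ErbB receptors, was at -0.45 (SE 0.29) and the adaptor Crkl at -0.24 (SE 0.15). The smallest adjusted p of the list was 0.743. Musk, Chrna1, Chrnd, Colq, Erbb3 and Ache were detected on no array, so the kinase and the ligand-binding subunit of the receptor that rapsyn clusters in muscle were not above background in these testes.

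Other actin cross-linkers gave 0 of 15 tested genes called by limma and 0 at an unadjusted p under 0.05, with a median of 0.07. Examples are Lcp1, a plastin of blood cells (0.34, SE 0.17, detected on 1 of 3 wild-type arrays), Anln, the anillin of the cleavage furrow (-0.38, SE 0.23), Sptb, a spectrin (-0.23, SE 0.14), and Dst, a plakin (0.19, SE 0.15). Of 19 tested partners of alpha-actinin at focal adhesions and stress fibres 0 were called by limma and 1 was higher at an unadjusted p under 0.05, with a median of 0.11. That gene was Vasp, an actin-polymerising protein (0.64, SE 0.22, adjusted p = 0.425), detected on 1 of 3 wild-type arrays. Trip6 and Zyx, LIM proteins of focal adhesions, were at 0.22 (SE 0.14) and 0.16 (SE 0.14), and Parva, a parvin, at 0.21 (SE 0.16).

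**Figure D4:**
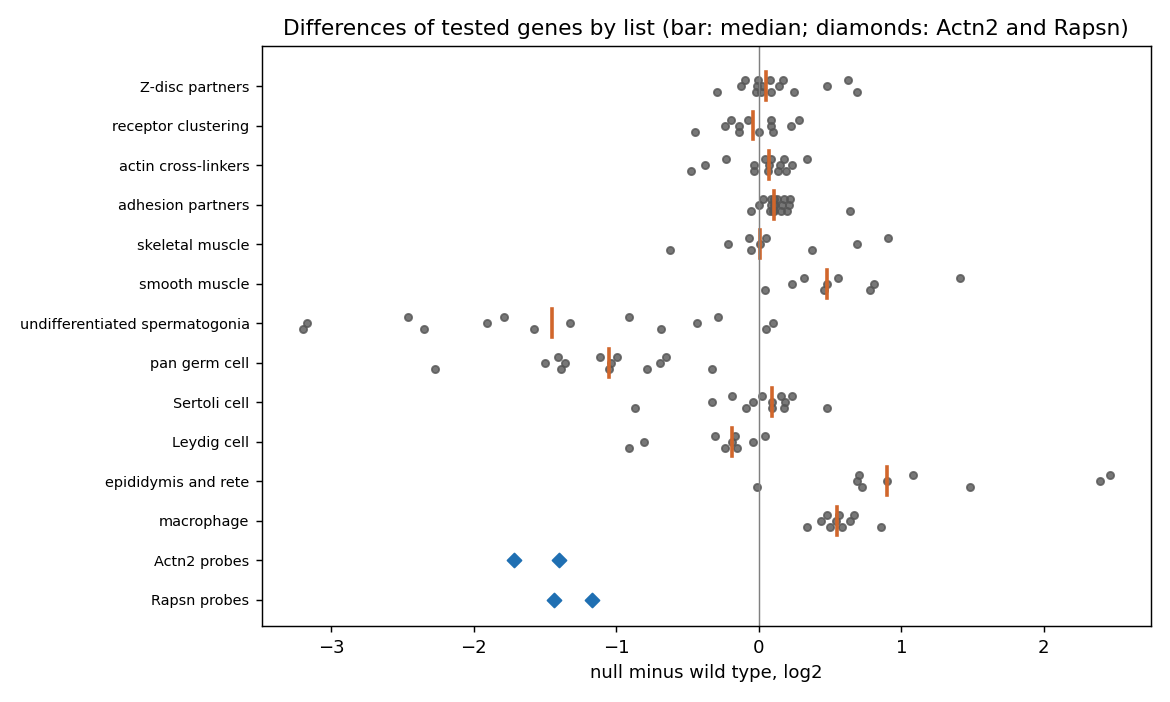
Difference in normalized log2 intensity, null minus wild type (x axis), of the tested genes of each list (y axis, 1 point per gene, the bar being the median), with the tested Actn2 and Rapsn probes as diamonds. The lowest values of the Z-disc and receptor clustering lists, by the brightest tested probe of each gene, are -0.29 and -0.45, and the diamonds lie below them. Actn2 and Rapsn were chosen because a probe of each was called lower in this contrast, so nothing is read from that position.

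Markers of skeletal muscle, where Actn2 and Rapsn are best known, were not lower with them. Of 22 measured marker genes 10 were detected on no array, among them Ckm, Myh1, Myh4, Tnnc2, Casq1 and the myogenic factors Myod1, Myf5, Myf6 and Pax7. Of the 9 tested, limma called 0, with 1 lower and 1 higher by the unadjusted p under 0.05, and the median difference was 0.01. Ryr1, the calcium release channel of skeletal muscle, was at -0.62 (SE 0.18, adjusted p = 0.336) and was detected on 1 null and 3 wild-type arrays. Tnnt1, slow skeletal troponin T, was at 0.91 (SE 0.26, adjusted p = 0.336), Myh8, perinatal myosin, at 0.69 (SE 0.33) and Mylpf, a fast myosin light chain, at -0.22 (SE 0.17).

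The mean log2 level of the tested skeletal muscle genes relative to wild type was -0.16, 0.37 and 0.14 on null replicates 1, 2 and 3 and between -0.09 and 0.06 on the wild-type arrays. Acta1, skeletal muscle actin, had a scanner intensity of 663 on null replicate 3 and between 112 and 140 on the other arrays. The Acta1 probe was detected on 1 null and 1 wild-type array and was not tested. Without null replicate 3 the differences were -1.86 at the called Actn2 probe and -1.41 at the called Rapsn probe. Whether the Acta1 level of that array bears on them was not tested. Markers of smooth muscle and peritubular cells were all above 0, from 0.04 to 1.42 with a median of 0.48, with 0 of 9 called by limma and 6 higher at an unadjusted p under 0.05. The largest was Actg2, enteric smooth muscle actin (1.42, SE 0.40, adjusted p = 0.321), followed among those with the smallest p by Myh11 (0.78, SE 0.27), Acta2 (0.48, SE 0.18) and Smtn (0.46, SE 0.18).

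Most markers of germ cells had negative differences, as Actn2 and Rapsn did. Of 14 tested genes of undifferentiated spermatogonia 1 was called lower by limma, Nanos2 (-1.91, SE 0.20, adjusted p = 0.0239), and the median difference was -1.45 (11 lower at an unadjusted p under 0.05). The number called lower was 8 with normexp and an offset of 50, 5 without null replicate 1, and 0 without any other single array, with 8 to 10 lower at an unadjusted p under 0.05. With the authors' normalized values it was 3 and the median was -0.79. Nanos2 was detected on 2 of 3 null arrays. That list's mean level relative to wild type was -0.97, -1.66 and -1.64 on null replicates 1, 2 and 3 and between -0.19 and 0.15 in wild type. All 13 tested pan germ cell genes had negative values, with a median of -1.05 and 0 called by limma (11 lower at an unadjusted p under 0.05). Their mean level was between -1.52 and -0.84 on the null arrays and -0.13, -0.31 and 0.44 on wild-type replicates 1, 2 and 3.

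Averaged over both tested probes, Actn2 was at -1.76, -1.66 and -1.27 on null replicates 1, 2 and 3 relative to its wild-type mean, and Rapsn at -1.20, -1.35 and -1.35. On the wild-type arrays Actn2 was at -0.32, -0.08 and 0.40 and Rapsn at -0.07, -0.39 and 0.46. Wild-type replicate 3 was thus the highest array for Actn2, Rapsn and the pan germ cell list alike. Among the null arrays, Rapsn and both germ cell lists were nearest to wild type on null replicate 1, whereas the Actn2 average was lowest there. The 2 Actn2 probes differed in this. The called probe ILMN_2764727 was lowest on null replicate 2 (6.53, 6.39 and 6.90 on null replicates 1, 2 and 3). The dimmer ILMN_2797061 was lowest on null replicate 1 (5.21, 5.55 and 5.81). The spread of Rapsn over these 3 arrays was small. Markers of epididymis and rete epithelium were higher on null replicates 2 and 3 (1.78 and 1.35) than on null replicate 1 (0.34), with wild type between -0.39 and 0.23, and 0 of 9 tested genes called by limma (6 higher at an unadjusted p under 0.05). Cdh16 (2.47, SE 0.61), Krt7 (1.09, SE 0.29), Krt19 (1.49, SE 0.43, detected on 1 of 3 wild-type arrays) and Lcn2 (2.40, SE 0.75) had the smallest p there.

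The level of macrophage markers was between 0.29 and 0.71 on the null and between -0.10 and 0.11 on the wild-type arrays (0 of 10 called by limma, 6 higher at an unadjusted p under 0.05). Sertoli cell genes had a median difference of 0.09 and Leydig cell genes of -0.19, with 0 of 13 and 0 of 9 called by limma (1 and 2 lower at an unadjusted p under 0.05). What part these markers have in the values of Actn2 and Rapsn was not tested. Which cells of the testis carry Actn2 and Rapsn was not measured either.

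**Figure D5:**
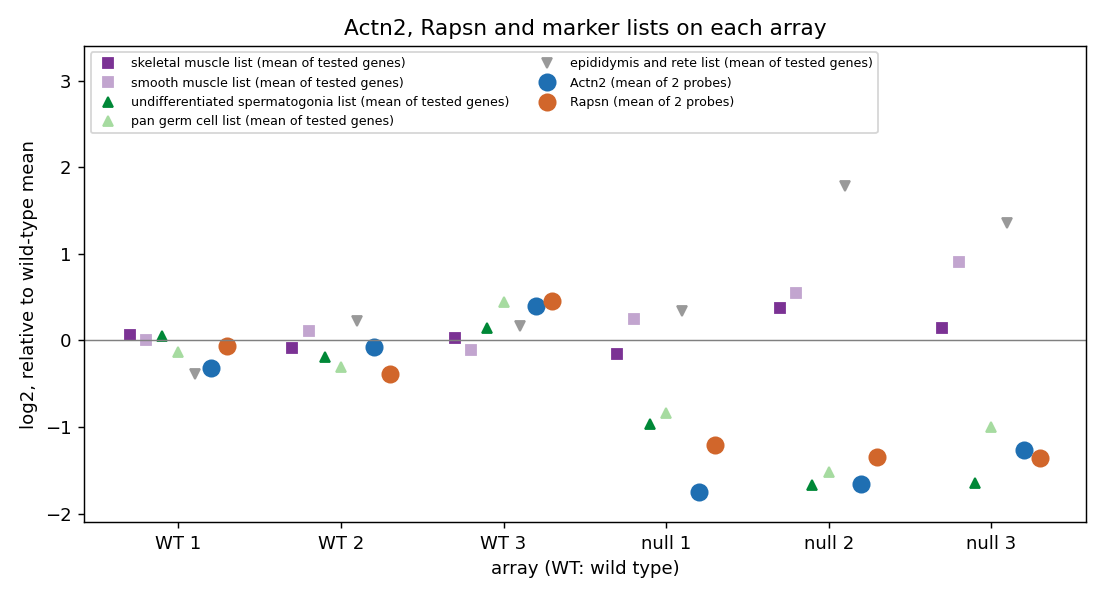
Level of Actn2 and Rapsn (mean of their tested probes) and of 5 marker lists (mean of tested genes) on each array (x axis; WT, wild type), in log2 relative to the wild-type mean (y axis). On all 3 null arrays Actn2, Rapsn and both germ cell lists lie at -0.84 or lower, and the smooth muscle and the epididymis and rete lists at 0.25 or higher.

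The genes whose values over the 6 arrays were most like those of Actn2 probe ILMN_2764727 were Spint5, a Kunitz-type inhibitor (Pearson r = 0.99, difference -1.45, SE 0.18), Pacsin1, a membrane-bending adaptor (0.99, difference -1.34, SE 0.22), Agfg2 (0.99, difference -0.23), Psmc2, a proteasome ATPase (0.99, difference -0.13), and Esrrb, an orphan nuclear receptor (0.99, at least 1.15-fold lower). Esrrb was detected on 0 of 3 null arrays and Pacsin1 on 1. For Rapsn probe ILMN_2723095 they were Ttc29 (r = 0.997, at least 1.84-fold lower, detected on 0 of 3 null arrays), Ctu2, a tRNA thiolation factor (0.99, difference -0.47), Ebna1bp2, a ribosome biogenesis factor (0.99, difference -0.25), Rpa2, a subunit of replication protein A (0.99, difference -0.45), and Msi2, an RNA-binding protein (0.99, difference -0.26). Such an r mixes the difference between the groups with the variation inside them, and 317 of 11140 genes exceeded 0.9 for Actn2 and 360 for Rapsn, so the likeness is a description of 6 arrays. Only Spint5 was itself called (adjusted p = 0.0319, limma), and the 2 sets of 5 genes shared 0 members.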

How the data were processed

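The deposited scanner table gives for each of 45281 probes on 6 arrays a mean bead intensity, its standard error over beads, the bead count and a detection p-value, per the file headers. BeadStudio is named in the submitters' processing notes. These intensities were neither normalized nor background-subtracted. A second deposited table holds intensities that the authors normalized by a method not given in the sources used here. It ranks probes as the scanner does (Spearman 1), on a linear scale with medians from 130.61 to 130.71, and served as an alternative.

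Intensities were processed with limma 3.58.1 in R 4.3.3. Its neqc function removed background using the detection p-values, added an offset of 16, applied quantile normalization and took log2. Null minus wild type was fitted without covariates by lmFit and eBayes over 20597 probes, with two-sided p-values adjusted by Benjamini-Hochberg. The fit was also run on simulated data with independent normal noise of the fit's own variances. Because those data share the fit's assumptions, they cannot show how it behaves on these arrays. For a bound, an undetected probe took on each array its own value or that array's dimmest detected probe, whichever was brighter.

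Probes were named from the platform annotation (34885 with 1 symbol, 18 with several, 10378 with none), and 34807 matched a GRCm38.p6 gene table by Entrez number, changing 0 symbols. The members, the 12 lists and all rules were chosen with earlier results of these data known. Named genes are all member probes, Foxo1, in each list up to 4 tested genes with the smallest p, and 5 genes most correlated with the brightest Actn2 and Rapsn probes. Agrn, Flnc and Tcap, the undetected genes and Acta1 were named outside this rule after their values were seen. The alternatives were the background correction, normalization, filter, variance model, covariates, threshold, probe averaging and leaving out each array.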

Additional observations from a re-analysis of the deposited data

How the results depend on the processing

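Over all tested probes, limma called 26 lower and 2 higher. Those counts were 53 and 9 without background correction, 70 and 11 with normexp and an offset of 50, 45 and 8 with the authors' normalized values, 85 and 18 with a trended and robust prior, 83 and 26 with array weights, and 66 and 10 at an adjusted p under 0.1. They were 12 lower with median scaling, 1 and 1 without a filter on dim probes, and 17 and 1 with detection on all 6 arrays, and 6 were higher with slide position as a covariate. Leaving out single arrays gave 0 to 49 lower and 1 to 29 higher. With the probes of a gene averaged, 14 and 1 of 11145 genes were called. The main fit called 18 and 1 of 11145 genes when each entered by 1 probe. Of the Actn2 and Rapsn probes, 2 were called lower, 0 with median scaling or without a filter (5 members' probes lower at an unadjusted p under 0.05 in either), 0 genes with probes averaged (3 at an unadjusted p under 0.05), and 0 to 1 without single arrays. The Z-disc, receptor clustering, cross-linker and adhesion lists had 0 calls in every one of these settings. The causes of these shifts were not tested. With the replicate number as a block, limma called 51 probes lower and 17 higher, and 3 of the members' probes. The labels do not say whether the numbers pair the samples. Deviations of same-numbered arrays correlated at 0.158, -0.0957 and 0.106, and those of differently numbered arrays at -0.179 to 0.09. So few values cannot settle whether the samples are paired. Median scaling moved the median difference of all tested genes from 0.01 to 0.13. Of 14 undifferentiated spermatogonia genes, 0 were called without a filter on dim probes (11 lower at an unadjusted p under 0.05) and 5 with array weights. With detection on all 6 arrays, 0 of 10 such genes were called (7 lower at an unadjusted p under 0.05). The median of the macrophage list was 0.55, and 0.30 with the authors' normalized values. That of the epididymis and rete list was 0.90, and 0.49 without null replicate 2. The Actn3 probe was not above background on any null array, so its difference is limited to a bound.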
